A study of Mus musculus with 20 samples.

Results

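The RNA interference machinery is described here through 10 genes that make small RNAs and put them to work. They are the Microprocessor subunits Drosha and Dgcr8, the export receptor Xpo5, the ribonuclease Dicer1 with its partners Tarbp2 and Prkra, and the Argonautes Ago1, Ago2, Ago3 and Ago4. The genes were listed by symbol and mapped to the Ensembl identifiers of the read count table, where each of the 10 matched 1 of 55401 genes, of which 21897 are protein-coding. The question asked of them is whether their levels differ in cerebella that express an shRNA.

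The study sequenced cerebellar RNA of C57BL/6J mice, 1 cerebellum in each of 20 libraries. At the time labelled 9w there were 3 WT mice given AAV PHP.eB with the shRNA shA4, which is directed at CAG repeats, and 3 untreated WT mice. At the time labelled 25w there were 5 SCA7 140Q/5Q knock-in mice given AAV-shA4, 5 SCA7 140Q/5Q knock-in mice given the scrambled shRNA shSCR in the same vector, and 4 untreated WT mice. The SCA7 mice carry 1 Atxn7 allele with 140 glutamines and 1 with 5. According to the methods, mice were injected into the retro-orbital vein at about 5 weeks of age, and untreated mice received saline. Figure legends give males for the late AAV-shSCR-treated and WT mice of the RNA comparison. For AAV-shA4-treated SCA7 mice a legend gives males for those weighed after injection. The study counts the times from injection. For the early treated mice its weeks equal the label, and for the late mice they are fewer than the label. The labels do not say from which day they count, so that the age at sampling is not certain. An H1 promoter drives the shRNA and a CMV promoter an eGFP reporter. The study describes the vector as reaching most Purkinje cells (PCs) but few granule neurons, so that bulk cerebellar RNA holds much RNA from cells without the vector.

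As background, a microRNA (miRNA) begins as a hairpin in a long transcript, is cut free by the Microprocessor in the nucleus, leaves through exportin-5, is trimmed to a short duplex by Dicer, and guides an Argonaute to matching messenger RNAs. An shRNA made by RNA polymerase III starts as a short hairpin, so it skips the Microprocessor and shares exportin-5, Dicer and the Argonautes with the miRNAs of the cell. PCs need this pathway, since mouse PCs that lose Dicer are known to degenerate.

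Levels are given as CPM, counts scaled for library size with edgeR's TMM factors over the 20 libraries. Total counts per library were 47455917 to 49212593 in untreated and 36245752 to 39208298 in AAV-shA4-treated WT mice at 9w, a difference in depth without overlap. They were 39036803 to 54570503 in untreated WT mice at 25w, 33758498 to 40621179 in AAV-shSCR-treated and 31465586 to 44708557 in AAV-shA4-treated SCA7 mice. Reads on the 10 genes made up 0.0726% to 0.0890% of each library. The fewest reads on a member in a library were 655, on Tarbp2, and the most were 9213, on Ago2, so each of the 10 passed the filter on low counts in each comparison.

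Markers of cerebellar cells were read as a check of the tissue. The summed level of 6 PC markers, led by Itpr1, was between 5725 and 9003 CPM over the 20 libraries, and no PC marker was at 0 in any of them. Forebrain markers summed to 7.53 to 11.3 CPM, mostly Neurod6, and brainstem markers to 0.425 to 1.42 CPM. Choroid plexus markers, led by Ttr, ran from 35.7 to 3823 CPM and differed widely within groups. AAV-shA4-treated SCA7 replicate 1 and untreated WT replicate 1 at 25w stood apart on the second principal component of the 20 libraries, at 33.4 and 25.9, where the other libraries lay between −17.4 and 6.25. For Ago2 in the SCA7 groups the values without both are given below.

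Atxn7, the gene the shRNA is aimed at through its repeat, was at 38.7, 43.1 and 37.6 CPM in untreated and 38.2, 41.3 and 41.0 CPM in AAV-shA4-treated WT mice at 9w. At 25w its level ran from 45.7 to 50.2 CPM in untreated WT mice, from 45.6 to 53.4 CPM in AAV-shSCR-treated SCA7 mice and from 44.4 to 51.7 CPM in AAV-shA4-treated SCA7 mice. These groups overlapped at each time, and edgeR's log2 fold changes between them were between −0.041 and 0.032. The counts are per gene and do not split the mutant from the normal allele. The study measured the protein by western blot, and reports less mutant ATXN7 in cerebella of SCA7 mice given AAV-shA4, with normal ATXN7 unaffected. The shRNA itself and the vector are not in the count table, so that the labels of treatment cannot be checked from these counts.

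**Figure D1:**
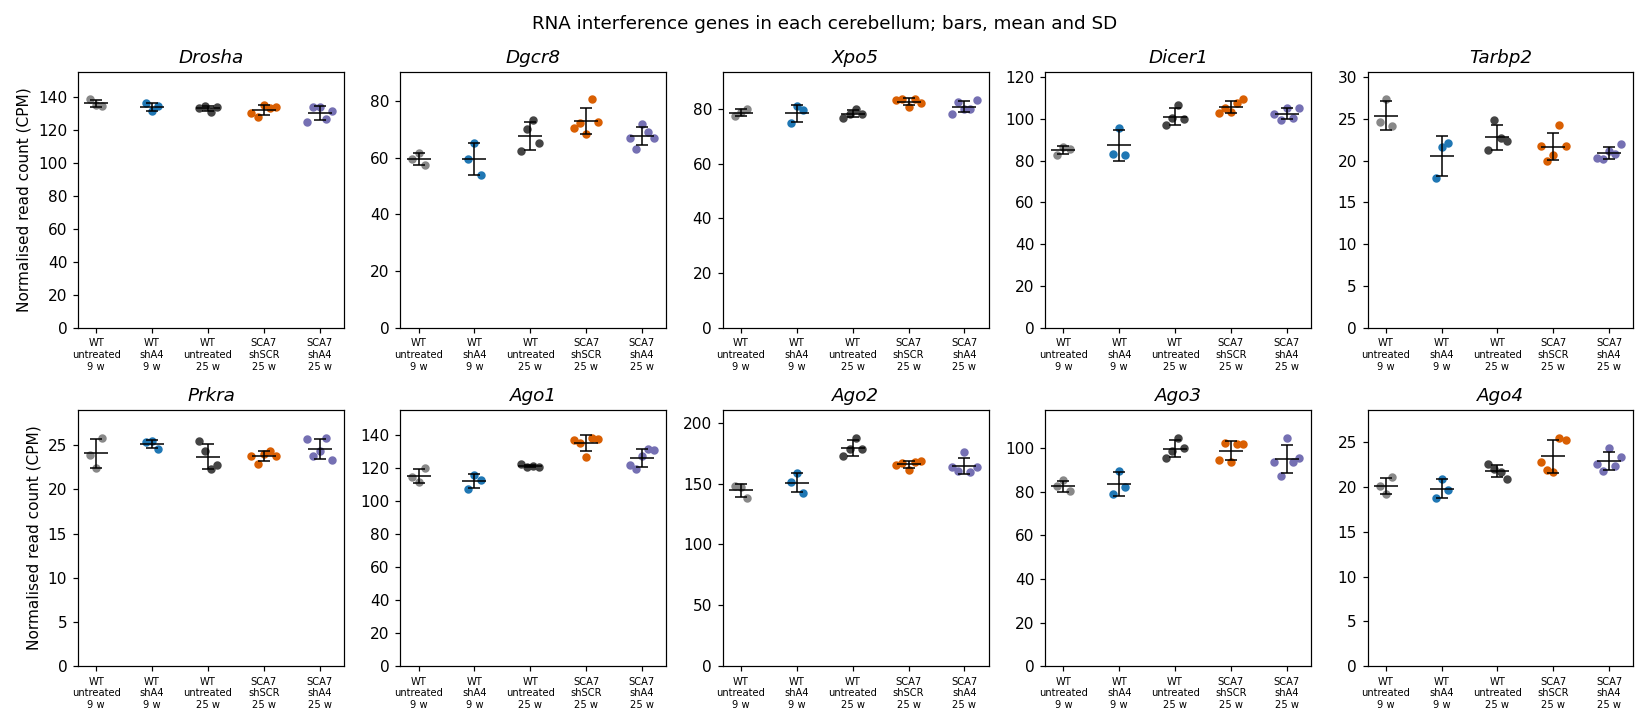
Normalised read count (CPM, vertical axes from 0) of the 10 genes in each cerebellum, with 1 point per mouse and bars for the mean and SD of each of the 5 conditions. Drosha lies between 125 and 139 CPM in every library, and Ago2 is highest in the 4 untreated WT mice at 25w, at 172.8 to 188 CPM, except that 1 AAV-shA4-treated SCA7 mouse reaches 176 CPM.

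Per kilobase of the median transcript length of each gene, the order of mean levels over the 20 libraries was Ago2 (264 CPM per kilobase), Drosha (151), Ago3 (143), Ago1 (74.5), Dgcr8 (66.1), Dicer1 (27.0), Tarbp2 (25.5), Xpo5 (25.5), Prkra (20.9) and Ago4 (6.17). With the longest transcript as the length the order began with Drosha (29.0 CPM per kilobase), Ago1 (17.1), Xpo5 (15.8) and Dgcr8 (15.4), and Ago2 came sixth at 11.8. Ago4 was last on both scales. Which Argonaute ranks first thus rests on the transcript length used, because the annotated transcripts of Ago2 have a median of 617 bases and a longest of 13800.

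The nuclear step was steady between conditions for Drosha and less so for Dgcr8. Drosha, the ribonuclease that cuts the hairpin out of the primary transcript, had group means of 136 ± 2.25 (SD, n = 3) in untreated and 134 ± 2.26 CPM (SD, n = 3) in AAV-shA4-treated WT mice at 9w. At 25w its means were 133 ± 1.55 (SD, n = 4) in untreated WT, 132 ± 3.01 (SD, n = 5) in AAV-shSCR-treated SCA7 and 130.1 ± 4.13 CPM (SD, n = 5) in AAV-shA4-treated SCA7 mice. In this order from highest to lowest, no neighbours differed by more than the larger of their SDs, and Drosha had the smallest coefficient of variation of the members over the 20 libraries, 2.47%. Dgcr8, the RNA-binding partner that places Drosha on the hairpin, had means of 59.6 ± 2.12 (SD, n = 3) and 59.5 ± 5.50 CPM (SD, n = 3) in untreated and AAV-shA4-treated WT mice at 9w. Its means at 25w were 67.7 ± 4.81 (SD, n = 4) in untreated WT, 72.9 ± 4.63 (SD, n = 5) in AAV-shSCR-treated and 67.6 ± 3.14 CPM (SD, n = 5) in AAV-shA4-treated SCA7 mice. For Dgcr8, the AAV-shSCR-treated mice stood above the other late groups, and the late groups above both early groups, by more than the larger SD.

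Xpo5 encodes exportin-5, which carries hairpins with a short overhang out of the nucleus and is the first step an shRNA shares with miRNAs. Its group means ran from 78.3 ± 1.31 CPM (SD, n = 4) in untreated WT mice at 25w to a mean of 82.6 CPM (n = 5) in AAV-shSCR-treated SCA7 mice, with both early groups and the AAV-shA4-treated SCA7 mice, at 80.8 ± 1.96 CPM (SD, n = 5), between them. The gap between the SCA7 groups and the 3 WT groups was larger than the larger SD of the groups beside it, and the WT groups did not differ from each other by that measure. Over the 20 libraries Xpo5 stayed between 75.0 and 83.5 CPM.

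In the cytoplasm, Dicer1, which cuts the loop from the hairpin, separated the times. Its means were 85.0 ± 1.94 (SD, n = 3) and 87.3 ± 7.29 CPM (SD, n = 3) in untreated and AAV-shA4-treated WT mice at 9w. At 25w they were 101 ± 4.00 (SD, n = 4) in untreated WT, 102.4 ± 2.60 (SD, n = 5) in AAV-shA4-treated SCA7 and 106 ± 2.76 CPM (SD, n = 5) in AAV-shSCR-treated SCA7 mice. Tarbp2 encodes TRBP, a double-stranded RNA binding partner of Dicer, and its highest mean was that of untreated WT mice at 9w, 25.4 ± 1.72 CPM (SD, n = 3), above the other 4 groups by more than the larger SD. Those 4 groups had means of 20.6 to 22.8 CPM, in which no neighbours differed by that measure. Prkra encodes PACT, the other such partner of Dicer, which also activates the kinase PKR. Its means were 23.7 to 25.1 CPM, and no neighbours among the 5 groups differed by more than the larger SD.

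The Argonautes hold the guide strand, and Ago2 is the one known for cutting fully paired targets. Ago2 had its highest mean in untreated WT mice at 25w, 179.3 ± 6.28 CPM (SD, n = 4), followed by AAV-shSCR-treated SCA7 mice at 165.9 ± 2.94 (SD, n = 5) and AAV-shA4-treated SCA7 mice at 165 ± 6.76 CPM (SD, n = 5). The early means were 151 ± 8.01 (SD, n = 3) in treated and 144 ± 5.18 CPM (SD, n = 3) in untreated WT mice. The order thus fell into 3 steps, untreated WT mice at 25w, the SCA7 groups and the early groups, each separated by more than the larger SD. Ago1 had a different order, with the highest mean in AAV-shSCR-treated SCA7 mice, 135 ± 4.89 CPM (SD, n = 5), then AAV-shA4-treated SCA7 mice at 126 ± 5.51 (SD, n = 5) and untreated WT mice at 25w at 121 ± 0.690 CPM (SD, n = 4). Ago3 had late means of 95.1 to 99.9 and early means of 82.7 and 83.7 CPM. Ago4, the least abundant Argonaute per length, had late means of 21.8 to 23.4 and early means of 19.8 and 20.1 CPM, and for both genes the step between the times exceeded the larger SD.

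The early comparison sets AAV-shA4-treated against untreated WT mice, and is the only one in which vector and shRNA differ at the same genotype and time. No member passed the test in edgeR, and 9 of the 10 had log2 fold changes between −0.045 and 0.060. Tarbp2 was the member set apart, lower in each of the 3 treated mice than in any untreated mouse.

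Tarbp2 was at 24.6, 27.3 and 24.2 CPM in the untreated and 17.9, 21.7 and 22.1 CPM in the AAV-shA4-treated WT mice. The highest treated mouse, at 22.1 CPM, lay below the lowest untreated mouse, at 24.2 CPM, and treated replicate 1 was the lowest library of all 20. Its log2 fold change was −0.31 (SE 0.090, 95% confidence interval −0.50 to −0.11, unadjusted p = 0.00586, adjusted p = 0.280 by Benjamini-Hochberg over the genes tested, from the quasi-likelihood test of edgeR), so the difference did not pass. The exact permutation test, two-sided here and throughout, gave p = 0.1, the smallest that 3 against 3 mice allow. Groups did not overlap in 16% of the 14733 protein-coding genes tested, and 1 of the 10 members is near that share. Of these genes 0.0679% passed an adjusted p under 0.05 in edgeR, 10 genes in all, and 11.1% had an unadjusted p under 0.05, as had 1 of the 10 members. DESeq2 called 130 genes and limma-voom 12, with 0 members in either. The 10 genes called in edgeR became 6, 1 and 73 without treated replicate 1, 2 or 3, and 4 and 2 without untreated replicate 2 or 3, with 0 members in each such fit. All 5 ependyma markers had a higher mean in treated mice, 3 at an unadjusted p under 0.05, and 1, Ccdc153, was called in edgeR. Their sums were 17.4, 15.8 and 24.0 CPM in untreated and 26.5, 25.5 and 27.2 CPM in treated mice, without overlap.

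Other marker lists leaned one way in the early comparison, though 0 of their genes were called in edgeR. All 6 oligodendrocyte markers, led by Mbp, had a lower mean in treated mice, 3 at an unadjusted p under 0.05. Their sums were 7533, 7408 and 7629 CPM in untreated and 7064, 6969 and 6749 CPM in treated mice, without overlap. All 6 markers of Bergmann glia and astrocytes, led by Slc1a3, had a higher mean, 1 at an unadjusted p under 0.05. Their sums were 3289.6, 3145 and 3215 CPM in untreated and 3533, 3370.0 and 3401 CPM in treated mice, again without overlap. All 6 microglia markers had a higher mean as well, 2 at an unadjusted p under 0.05, at sums of 154, 152 and 161 CPM and 167.2, 157 and 193 CPM, with overlap. All 5 blood markers had a lower mean, 2 at an unadjusted p under 0.05, and 5 of 6 PC markers a higher one, 1 at an unadjusted p under 0.05. The mean was also lower for all 5 choroid plexus markers, with 0 at an unadjusted p under 0.05. The part of these markers in the level of Tarbp2 was not tested.

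Of the genes that an H1-driven shRNA shares with miRNAs, Xpo5, Dicer1 and Ago2 had values close together in this comparison, unlike Tarbp2, the partner of Dicer. Xpo5 was at 77.4, 78.8 and 79.8 CPM in untreated and 75.0, 81.0 and 79.5 CPM in treated mice, a log2 fold change of −0.0058 (95% confidence interval −0.11 to 0.10). Dicer1 was at 82.8, 86.6 and 85.7 CPM in untreated and 83.3, 95.7 and 82.8 CPM in treated mice, where treated replicate 2 alone exceeded the untreated mice. Its log2 fold change was 0.036 (95% confidence interval −0.096 to 0.17). Ago2 was at 148, 147 and 138 CPM in untreated and 151, 158 and 142 CPM in treated mice, with 2 treated mice above and 1 inside the untreated range. Its log2 fold change was 0.060 (95% confidence interval −0.057 to 0.18). For these 3 genes the intervals leave room for changes of up to about 0.18 on the log2 scale in bulk tissue, and the median over the 10 members was −0.0048, against −9.9e-05 over all genes tested.

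The comparison of AAV-shA4-treated with AAV-shSCR-treated SCA7 mice holds genotype, vector and time constant and varies the shRNA. No member passed the test in edgeR, and no gene of the 14862 tested did (0%), while 1222 genes (8.22%) and 2 of the 10 members, Ago1 and Dgcr8, had an unadjusted p under 0.05. Limma-voom called 0 genes and DESeq2 23, with 0 members. Of the 10 members 9 had a lower mean with AAV-shA4, all but Prkra, where 7414 of the 14862 genes had one. The median log2 fold change was −0.040 against 0.00021 over all genes tested.

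Ago1 was at 137, 135, 127, 139 and 138 CPM with AAV-shSCR and 122, 119.6, 127, 132 and 131 CPM with AAV-shA4. Replicate 3 with AAV-shSCR lay inside the range of the AAV-shA4-treated mice and its other 4 mice lay above it. The log2 fold change was −0.097 (SE 0.032, 95% confidence interval −0.16 to −0.030, unadjusted p = 0.00746, adjusted p = 0.514 in edgeR), and the exact permutation p was 0.0397, where 0.00794 is the smallest possible. Dgcr8 was at 70.6, 72.2, 68.4, 80.6 and 72.6 CPM with AAV-shSCR and 67.0, 63.2, 71.8, 69.0 and 67.1 CPM with AAV-shA4, again with overlap. Its log2 fold change was −0.11 (SE 0.049, 95% confidence interval −0.21 to −0.0036, unadjusted p = 0.0434, adjusted p = 0.597 in edgeR), and the exact permutation p was 0.0476. The groups overlapped in each of the 10 members, and did not overlap in 1.49% of the genes tested. For Tarbp2 the AAV-shSCR-treated mice had a mean of 21.7 ± 1.61 CPM (SD, n = 5), against 20.9 ± 0.711 CPM (SD, n = 5) in the AAV-shA4-treated mice, a log2 fold change of −0.054 (95% confidence interval −0.17 to 0.063).

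Cell markers gave 0 calls in edgeR between these groups, with at most 1 at an unadjusted p under 0.05 in any list, though some lists leaned one way. With AAV-shA4 the mean was higher for 6 of 6 oligodendrocyte, 5 of 6 PC and 5 of 6 Bergmann glia and astrocyte markers, and lower for 5 of 5 blood and 5 of 5 choroid plexus markers. The summed levels of each of these 5 lists overlapped between the groups. The part of these markers in the levels of the members was not tested.

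The early and the late AAV-shA4 effect were also set against each other as an interaction in edgeR over the 20 libraries, though their controls differ, untreated mice in one and AAV-shSCR-treated mice in the other. Of 15095 genes 0 passed (0%), 1137 (7.53%) had an unadjusted p under 0.05, as had 1 of the 10 members, and 0 of the 10 passed. Tarbp2 had the smallest p of the members, with a difference of −0.25 on the log2 scale (SE 0.10, unadjusted p = 0.0220, adjusted p = 0.645).

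**Figure D2:**
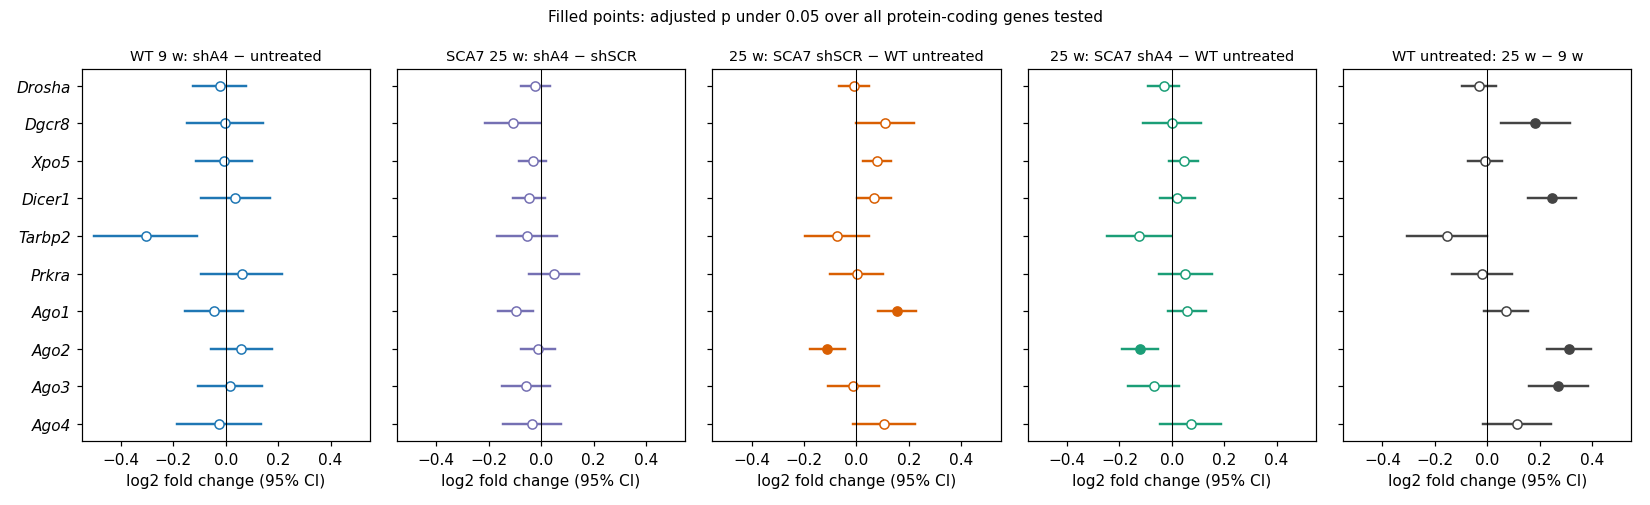
Log2 fold change (horizontal axis) of the 10 genes with its 95% confidence interval from edgeR's quasi-likelihood fit, 1 panel for each of the 5 comparisons, with filled points at an adjusted p under 0.05. The panels of AAV-shA4 against untreated WT mice and against AAV-shSCR hold no filled point, and Ago2 is filled in the other 3, at −0.11, −0.12 and 0.31.

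Both SCA7 groups were compared with the same 4 untreated WT mice at 25w, so these comparisons share their controls, and genotype and vector with shRNA cannot be told apart in them. Ago1 was higher and Ago2 lower in AAV-shSCR-treated SCA7 mice, and Ago2 was lower in AAV-shA4-treated SCA7 mice. Each of these differences was under 1.3-fold.

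Ago2 was at 172.8, 178, 188 and 178 CPM in untreated WT mice, 165, 166.96, 161, 167.8 and 168.5 CPM in AAV-shSCR-treated and 163.3, 159.9, 176, 159.8 and 164.005 CPM in AAV-shA4-treated SCA7 mice. All 5 AAV-shSCR-treated mice lay below the lowest WT mouse, and so did 4 of the 5 AAV-shA4-treated mice, while AAV-shA4-treated replicate 3 lay inside the WT range. With AAV-shSCR Ago2 fell by 0.11 on the log2 scale (SE 0.032, 95% confidence interval −0.18 to −0.043, adjusted p = 0.0262 in edgeR, exact permutation p = 0.0159, the smallest possible). With AAV-shA4 it fell by 0.12 (SE 0.032, 95% confidence interval −0.19 to −0.054, adjusted p = 0.0172 in edgeR, exact permutation p = 0.0317). The call with AAV-shSCR was lost without untreated WT replicate 2 (adjusted p = 0.0506), replicate 3 (0.0949) or replicate 4 (0.0519) and without AAV-shSCR-treated replicate 3 (0.0570). The call with AAV-shA4 was lost without untreated WT replicate 3 (adjusted p = 0.0713). Without both libraries that stood apart the values were −0.13 (adjusted p = 0.0201) and −0.14 (adjusted p = 0.0213), and over all alternatives but those without 1 library the adjusted p ran from 0.00846 to 0.0385 in AAV-shSCR-treated and from 0.00363 to 0.0266 in AAV-shA4-treated mice. Ago2 overlaps the antisense gene Chrac1 by 219 bases of exon, and since the methods do not give the strand option used in counting, some of its reads may belong to Chrac1.

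Ago1 was at 122, 121, 121 and 121 CPM in untreated WT mice, where its spread was small, and at 137, 135, 127, 139 and 138 CPM in AAV-shSCR-treated SCA7 mice, each above every WT mouse. It rose by 0.15 on the log2 scale (SE 0.034, 95% confidence interval 0.083 to 0.23, adjusted p = 0.00469 in edgeR, exact permutation p = 0.0159), and the call held without each library in turn. In AAV-shA4-treated SCA7 mice, at 122, 119.6, 127, 132 and 131 CPM, replicate 2 lay below the WT mice and replicate 1 among them. The log2 fold change there was 0.058 (95% confidence interval −0.014 to 0.13, adjusted p = 0.299 in edgeR). Xpo5 was at 76.7, 78.1, 79.9 and 78.3 CPM in untreated WT mice and 83.4, 83.5, 80.5, 83.5 and 82.0 CPM in AAV-shSCR-treated SCA7 mice, without overlap. Its log2 fold change was 0.078 (SE 0.026, adjusted p = 0.0518 in edgeR), which did not pass, although it passed in DESeq2 (adjusted p = 0.0487), with upper-quartile scaling (0.0375) and without AAV-shSCR-treated replicate 3 (0.0435). The adjusted p ran from 0.0375 to 0.140 over all alternatives, these included, and up to 0.148 without 1 library in turn. In AAV-shA4-treated SCA7 mice Xpo5 was at 78.3, 82.4, 80.0, 80.1 and 83.1 CPM, with a log2 fold change of 0.046 (95% confidence interval −0.0093 to 0.10, adjusted p = 0.282 in edgeR, exact permutation p = 0.0317).

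In AAV-shSCR-treated mice 2 of the 10 members passed, beside 15.5% of the 14862 genes tested, 1 higher beside 6.89% and 1 lower beside 8.65%. In AAV-shA4-treated mice 1 of 10 passed, beside 13.6%, and it was lower, beside 8.11%. Both counts are near the share among all genes. At an unadjusted p under 0.05 were 4 of 10 members beside 28.7% and 2 of 10 beside 26.6%, and past 1.3-fold as well as the adjusted p were 0 of 10 in both, beside 4.02% and 3.45%. Groups did not overlap for 3 of 10 members with AAV-shSCR, Ago1, Ago2 and Xpo5, beside 16.8% of all genes, and for 0 of 10 with AAV-shA4, beside 13.4%. The medians over the 10 members were 0.034 and 0.0100, against 0.0017 and 0.0061 over all genes. The other 8 members ran from −0.073 for Tarbp2 to 0.11 for Dgcr8 with AAV-shSCR. With AAV-shA4 the other 9 ran from −0.13 for Tarbp2 to 0.072 for Ago4, and Tarbp2 had an unadjusted p of 0.0426 and an adjusted p of 0.170 in edgeR, with an exact permutation p of 0.0317.

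Markers of several cell types moved with the SCA7 groups. All 6 PC markers were called lower in both SCA7 groups, and their sum was 7989.5, 9003, 8358 and 8309.8 CPM in untreated WT, 6350.2, 6089.9, 6283, 5725 and 6425 CPM in AAV-shSCR-treated and 5782, 6301, 6813, 6543 and 6228 CPM in AAV-shA4-treated SCA7 mice, with Itpr1 the most abundant. Of 6 oligodendrocyte markers 4 were called lower in each SCA7 group. Their sum was 6212, 5209, 6098 and 5349 CPM in untreated WT, 4412, 4433, 4514, 4180.2 and 3752 CPM in AAV-shSCR-treated and 4149, 4358, 4572, 4798 and 4537 CPM in AAV-shA4-treated SCA7 mice, with Mbp the most abundant. Of 6 markers of Bergmann glia and astrocytes, led by Slc1a3, 2 were called lower in AAV-shSCR-treated and 3 in AAV-shA4-treated mice. Their sum was 2955, 3150.0, 3014 and 3124 CPM in untreated WT, 2907, 2692, 2803, 2713 and 2769 CPM in AAV-shSCR-treated and 2632, 3073, 2904, 2893 and 2727 CPM in AAV-shA4-treated SCA7 mice. Of 5 markers of molecular layer interneurons 1, the most abundant, Pvalb, was called lower in each SCA7 group, and the sum was 794, 811, 745 and 794 CPM in untreated WT, 713, 656, 666, 646 and 660.2 CPM in AAV-shSCR-treated and 628, 688, 671, 726 and 651 CPM in AAV-shA4-treated SCA7 mice. No marker of these 4 lists was at 0 in any library. Of 6 granule cell markers, led by Cbln3, 3 had a higher and 3 a lower mean in each SCA7 group, with medians of 0.014 and −0.031. In edgeR 1 was called lower in AAV-shSCR-treated and 2 in AAV-shA4-treated mice, with 0 called higher, and 4 of 6 had an unadjusted p under 0.05 in each group. Their sums were 3839, 4440.1, 4365 and 4418 CPM in untreated WT, 4079.7, 4075, 4118, 4138 and 4065 CPM in AAV-shSCR-treated and 3651, 4056, 3997, 4076 and 4031 CPM in AAV-shA4-treated SCA7 mice. Of 5 blood markers 1, Hbb-bs, was called higher with AAV-shSCR, and the sum was 2.25, 3.08, 5.18 and 4.00 CPM in untreated WT, 27.0, 3.03, 10.2, 16.2 and 2.17 CPM in AAV-shSCR-treated and 5.13, 5.34, 6.37, 4.38 and 8.27 CPM in AAV-shA4-treated SCA7 mice. All 5 had a higher mean in both SCA7 groups, with 4 at an unadjusted p under 0.05 in AAV-shSCR-treated mice. In AAV-shA4-treated mice 0 were called in edgeR and 0 had an unadjusted p under 0.05. Microglia, ependyma, choroid plexus, forebrain and brainstem markers gave 0 calls in edgeR in either SCA7 group, with 0 at an unadjusted p under 0.05. The part of these markers in the levels of Ago1, Ago2 and Xpo5 was not tested, and in bulk tissue fewer cells of a type and less RNA per cell cannot be told apart.

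Between the untreated WT mice of both times, 4 members were called and all 4 were higher at 25w, the Argonautes Ago2 and Ago3 and the processing genes Dicer1 and Dgcr8. Age and any difference between the early and the late set of libraries cannot be told apart here. This comparison gives the size of a difference in these genes without vector, shRNA or mutant allele.

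Ago2 was at 148, 147 and 138 CPM at 9w and 172.8, 178, 188 and 178 CPM at 25w, so that each late mouse exceeded each early mouse. It rose by 0.31 on the log2 scale (SE 0.040, 95% confidence interval 0.23 to 0.40, adjusted p = 1.93e-05 in edgeR). Ago3 was at 82.6, 85.3 and 80.2 CPM at 9w and 95.4, 98.9, 105 and 100.2 CPM at 25w, again without overlap. It rose by 0.27 (SE 0.053, 95% confidence interval 0.16 to 0.38, adjusted p = 0.00100 in edgeR). Dicer1 was at 82.8, 86.6 and 85.7 CPM at 9w and 97.2, 100.4, 107 and 99.7 CPM at 25w, with a clear gap between the times. It rose by 0.25 (SE 0.044, 95% confidence interval 0.16 to 0.34, adjusted p = 0.000416 in edgeR).

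Dgcr8 was at 59.6, 61.8 and 57.5 CPM at 9w and 62.4, 70.0, 73.1 and 65.2 CPM at 25w. The highest early and the lowest late mouse lay close together, without overlap. It rose by 0.18 (SE 0.063, 95% confidence interval 0.051 to 0.31, adjusted p = 0.0402 in edgeR). This call was lost without untreated WT replicate 1 at 9w (adjusted p = 0.0934), replicate 2 (0.0505) or replicate 3 (0.153). It was also lost without untreated WT replicate 2 at 25w (0.0892), replicate 3 (0.133) or AAV-shSCR-treated replicate 5 (0.0556), which enters through the shared estimate of the spread. With the replicate number as a block the value was 0.17 (adjusted p = 0.0831), and over all alternatives, that without both libraries that stood apart included, the adjusted p ran from 0.0205 to 0.0831. Dgcr8 overlaps the antisense gene Trmt2a by 825 bases of exon and Gm49776 on its own strand by 327 bases.

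The 4 of 10 members called stand beside 24.2% of the 15095 genes tested, and 12.2% called higher. Groups did not overlap for 5 of 10 members, the 4 called and Ago1, all higher at 25w, beside 33.4% of all genes, and exact permutation tests of 4 against 3 mice cannot give a p below 0.0571. None of the 4 passed 1.3-fold, which 5.27% of all genes did, and 5 of 10 members beside 36.2% of all genes had an unadjusted p under 0.05. Drosha, Xpo5 and Prkra had log2 fold changes of −0.032 to −0.0076, and Tarbp2 one of −0.15 (unadjusted p = 0.0492, adjusted p = 0.137 in edgeR). The median over the members was 0.092 against 0.0047 over all genes. Atxn7 rose by 0.28 in the same fit (adjusted p = 0.00149). All 6 oligodendrocyte markers were called lower at 25w, at sums of 7533, 7408 and 7629 CPM at 9w and 6212, 5209, 6098 and 5349 CPM at 25w, with Mbp the most abundant and none at 0. Of 6 microglia markers 3 were called higher, at sums of 154, 152 and 161 CPM and 195, 173.1, 179.8 and 171.3 CPM with none at 0. Of 6 granule cell markers, led by Cbln3, 3 were called lower, at sums of 4917, 4784 and 4361 CPM and 3839, 4440.1, 4365 and 4418 CPM with none at 0. Of 6 PC markers 4 had a higher and 2 a lower mean, with 1 called higher, Itpr1. Of 5 interneuron markers 2 had a higher and 3 a lower mean, with 1 called higher, Tfap2b, and 1 lower, Cdh22. All 5 ependyma markers had a higher mean, with 1 called, Tmem212, and 5 of 6 markers of Bergmann glia and astrocytes a lower one, with 1 called, Gdf10. All 5 choroid plexus markers had a higher and all 5 blood markers a lower mean, with 0 called in edgeR and 0 at an unadjusted p under 0.05 in either list. The part of these markers in the levels of the 4 genes was not tested.

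Pathway partners from 8 lists were read, each list beside the genes of the table. The same fits were used, save that miRNA host transcripts were read in the fit on all genes of the table. In the early comparison 0 genes of these lists passed in edgeR, and at most 2 genes in any list had an unadjusted p under 0.05. The medians of the 8 lists were between −0.074 for GW182 and RISC partners and 0.085 for double-stranded RNA genes. Between AAV-shA4-treated and AAV-shSCR-treated SCA7 mice 0 genes of the lists passed in edgeR, at most 2 in any list had an unadjusted p under 0.05, and medians ran from −0.11 for miRNA host transcripts to 0.026 for double-stranded RNA genes. DESeq2 and limma-voom were not counted over these lists.

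Most genes that bind or sense double-stranded RNA had higher means in both SCA7 groups than in untreated WT mice. Of 18 tested, 14 had a higher mean in each SCA7 group, where 7504 and 7756 of all 14862 genes had one with AAV-shSCR and AAV-shA4. With AAV-shSCR 4 were called higher and 1 lower, beside 6.89% and 8.65% of all genes, with 9 of 18 at an unadjusted p under 0.05 beside 28.7%, and a median of 0.17. With AAV-shA4 2 were called higher and 0 lower in edgeR, beside 5.47% and 8.11%, with 9 of 18 at an unadjusted p under 0.05 beside 26.6%, and a median of 0.31. Eif2ak2 encodes PKR, the kinase that halts translation when it binds double-stranded RNA, and was at 6.49 to 9.08 CPM in untreated WT, 10.04 to 13.5 CPM in AAV-shSCR-treated and 10.4 to 13.1 CPM in AAV-shA4-treated SCA7 mice. Neither SCA7 group overlapped with the WT mice. Eif2ak2 rose by 0.57 (SE 0.11, adjusted p = 0.00224 in edgeR) and 0.56 (SE 0.11, adjusted p = 0.00275). Oasl2, an interferon-induced relative of the oligoadenylate synthetases, was at 5.19 to 7.92 CPM in untreated WT, 8.84 to 18.8 CPM in AAV-shSCR-treated and 9.20 to 17.8 CPM in AAV-shA4-treated SCA7 mice, also without overlap. It rose by 0.94 (SE 0.23, adjusted p = 0.0101 in edgeR) and 0.80 (SE 0.23, adjusted p = 0.0278). Zbp1, a sensor of Z-form nucleic acid, was at no more than 0.981 CPM in untreated WT and at 0.696 to 2.12 CPM in AAV-shSCR-treated SCA7 mice and rose by 1.16 (SE 0.36, adjusted p = 0.0368 in edgeR) at these low levels, with overlap. The most abundant gene of the list per length, the RNA editor Adarb1, had log2 fold changes of −0.064 and −0.034 and did not pass. The other calls with AAV-shSCR, named after their values were seen, were Oas1a, which rose by 0.86 (adjusted p = 0.0379 in edgeR), and Stau2, which fell by 0.17 (adjusted p = 0.0152).

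Between the ages of untreated WT mice all 18 tested genes of this list had a higher mean at 25w, where 7701 of all 15095 genes had one, with a median of 0.30 against 0.0047 over all genes. Of the 18 genes 4 were called, all higher, beside 24.2% of all genes called in either direction and 12.2% called higher. An unadjusted p under 0.05 was reached by 10 of 18, beside 36.2% of all genes. Ifih1, the cytoplasmic sensor MDA5, was at 4.19 to 5.45 CPM at 9w and 6.32 to 8.62 CPM at 25w, without overlap. It rose by 0.61 (SE 0.13, adjusted p = 0.00161 in edgeR). Tlr3, the endosomal receptor of double-stranded RNA, was at 11.01 to 12.3 CPM at 9w and 14.7 to 18.1 CPM at 25w, and rose by 0.45 (SE 0.073, adjusted p = 0.000185 in edgeR). The other 2 called, named after their values were seen, were Adarb2 (0.24), whose groups overlapped, and Dhx9 (0.22). In the early comparison Eif2ak2 was at 5.21 to 6.97 CPM in untreated and 5.54 to 6.97 CPM in AAV-shA4-treated WT mice, a log2 fold change of 0.036 (SE 0.14). Of 17 genes of the list tested there, 11 had a higher mean in treated mice, where 7359 of all 14733 genes had one. In edgeR 0 were called and 2 had an unadjusted p under 0.05, beside 11.1% of all genes. The sums, led by Adarb1, were 1047, 1036.3 and 1035.7 CPM in untreated and 1058, 1066 and 1051 CPM in treated mice, without overlap.

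Partners that act with the Argonautes were read next. GW182 proteins link an Argonaute to the machinery that shortens and uncaps messenger RNAs, and all 11 genes of the list of GW182 and RISC partners had a higher mean in both SCA7 groups than in untreated WT mice. With AAV-shSCR 3 of them passed, beside 6.89% of all genes called higher, with a median of 0.12. These 3, named here after their values were seen, were Tnrc6b (0.13), Tnrc6c (0.16) and Wtip (0.36). With AAV-shA4 1 passed, Wtip (0.32), beside 5.47%, with a median of 0.057. Snd1, the most abundant of the list per length, had values of 0.0088 and 0.047. Of 21 genes of deadenylation, decapping and decay, led by Cnot2, 3 passed with AAV-shSCR and 1 with AAV-shA4, all higher, beside 6.89% and 5.47% of all genes called higher, and 19 and 15 had a higher mean, with medians of 0.050 and 0.018. These, again named after the fact, were Cnot6l (0.22), Dcp1a (0.14) and Xrn1 (0.14) with AAV-shSCR and Cnot6l (0.19) with AAV-shA4. Of 7 chaperones that open an Argonaute for loading, led by Hsp90ab1, 0 passed in edgeR in either SCA7 group, with 0 and 1 at an unadjusted p under 0.05 and medians of −0.029 and −0.011. Between the ages, where 24.2% of all genes passed, GW182 and RISC partners had 2 called higher, Tnrc6a and Tnrc6b, and 1 lower, Tsnax. Decay genes had 5 called higher, Cnot1, Cnot6, Dcp2, Ddx6 and Xrn1, and 1 lower, Cnot8, all named after their values were seen. Results between the ages for the chaperones and for the cofactors of the Microprocessor are not reported here.

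Partners of the other steps were read in the same way. Of 15 cofactors of the Microprocessor and of export, led by the helicase Ddx5, 1 was called higher in each SCA7 group, Ddx17 (0.15 and 0.10). This is near the 6.89% and 5.47% of all genes called higher, and the medians were 0.066 and 0.010. Ddx17 was named after its values were seen. Of 9 tested genes that tail, trim or turn over miRNAs, 2 were called higher and 1 lower with AAV-shSCR, and 1 higher and 1 lower with AAV-shA4, where 15.5% and 13.6% of all genes passed. Named after their values were seen, Tut7 (0.11) and Xrn2 (0.19) rose and Eri1 (−0.20) fell with AAV-shSCR, and Xrn2 (0.15) rose and Eri1 (−0.19) fell with AAV-shA4. Tut4, a uridylyl transferase that tails precursors and the most abundant of the list per length, was at 64.8 to 68.3 CPM in untreated WT mice at 9w and 74.0 to 83.1 CPM at 25w, and rose by 0.24 (SE 0.049, adjusted p = 0.00127 in edgeR). It was the only 1 of the 9 tested genes called between the ages, beside 24.2% of all genes. Of 10 germline genes of the piRNA pathway 3 had enough reads in the late libraries and 0 passed in edgeR in either SCA7 group, with 0 and 1 at an unadjusted p under 0.05. Piwil2, the most abundant of them, stayed at 2.04 to 2.71 CPM in untreated WT mice at 25w and was called higher than at 9w, by 0.48 (adjusted p = 0.0437 in edgeR). These levels are low, and Piwil2 was the only 1 of 4 germline genes tested between the ages that was called.

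**Figure D3:**
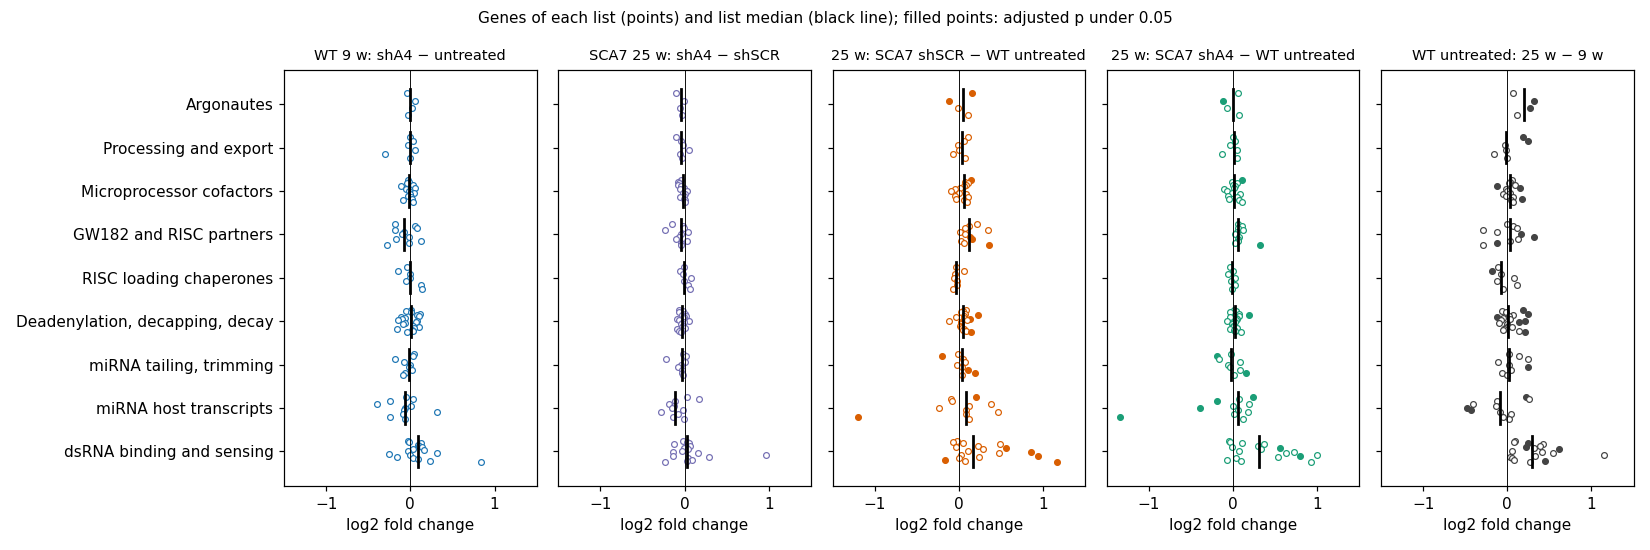
Log2 fold change (horizontal axis) of each tested gene of 9 groups of pathway genes, the Argonautes, the processing and export genes and 7 lists of partners, 1 panel for each of the 5 comparisons, with black lines for medians and filled points at an adjusted p under 0.05. Double-stranded RNA genes have medians of 0.17 and 0.31 in the SCA7 panels and 0.30 between the ages.

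Long transcripts listed as carrying miRNAs were counted in the fit on all genes of the table, and 11 of 12 matched were tested. Of these 2 passed in AAV-shSCR-treated and 4 in AAV-shA4-treated SCA7 mice against untreated WT mice, and 3 between the ages, beside 13.1%, 11.6% and 20.3% of all genes of the table. Meg3, which heads a large imprinted miRNA cluster and was the most abundant per length, rose by 0.20 with AAV-shSCR (SE 0.057, adjusted p = 0.0246 in edgeR), 0.24 with AAV-shA4 (SE 0.057, adjusted p = 0.0110) and 0.23 between the ages (adjusted p = 0.0399). Mirt1, placed in the list by its symbol and not known here to carry a miRNA, was at 24.6 to 29.6 CPM in untreated WT, 10.3 to 14.4 CPM in AAV-shSCR-treated and 8.92 to 12.7 CPM in AAV-shA4-treated SCA7 mice, far apart. It fell by 1.20 (adjusted p = 4.19e-07 in edgeR) and 1.34 (adjusted p = 1.61e-07). Mirt1 is thus among the calls counted above in both SCA7 groups. Mir670hg was at 15.99 to 20.5 CPM in untreated WT mice at 9w and 11.1 to 15.4 CPM at 25w, and fell by 0.47 (adjusted p = 0.00882 in edgeR). In AAV-shA4-treated SCA7 mice it was at 8.90 to 11.6 CPM and fell by 0.39 against untreated WT mice (adjusted p = 0.0310), and so did Mir124a-1hg, by 0.20 (adjusted p = 0.0497), which was named after its value was seen. Mir9-3hg was at 39.8 to 43.9 CPM in untreated WT mice at 9w and 29.6 to 33.9 CPM at 25w, without overlap, and fell by 0.43 (SE 0.074, adjusted p = 0.000344 in edgeR). The labels name a kit for messenger RNA, so no mature miRNA was measured. Those of Mir9-3hg, which lie in its intron, are shown because the host was lower at 25w, 5′ to 3′ with the seed (bases 2 to 8) in capitals, from RefSeq on build GRCm38.p6.
miR-9-5p: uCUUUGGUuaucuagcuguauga
miR-9-3p: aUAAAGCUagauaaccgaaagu

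Dgcr8 is itself a substrate of the Microprocessor. As background, hairpins in its messenger RNA are cut by Drosha, which lowers the messenger. The mature miRNAs of these hairpins are shown because the data give the level of the transcript that holds them. From RefSeq on build GRCm38.p6, the miR-3618 arms lie in the untranslated part of the transcript on the minus strand of chr16:18284562-18284623, and the miR-1306 arms in its coding part on the minus strand of chr16:18284248-18284310. They are written 5′ to 3′ with the seed in capitals, and no seed of these 4 equals another.
miR-3618-5p: uGUGAUUUccaauaauugaggc
miR-3618-3p: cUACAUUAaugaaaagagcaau
miR-1306-5p: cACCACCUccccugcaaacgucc
miR-1306-3p: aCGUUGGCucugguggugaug

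Over the 20 libraries the levels of Drosha and Dgcr8 can be read side by side. Drosha stayed between 125 and 139 CPM and Dgcr8 between 54.1 and 80.6 CPM.

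By position on build GRCm38, Ago1 (ENSMUSG00000041530, chr4:126435012-126468583), Ago3 (ENSMUSG00000028842, chr4:126331704-126429556) and Ago4 (ENSMUSG00000042500, chr4:126489541-126533472) are neighbours on the minus strand of chromosome 4. Ago2 (ENSMUSG00000036698, chr15:73095844-73184935, minus strand) lies apart, on the chromosome of Drosha (ENSMUSG00000022191, chr15:12824815-12935291, plus strand) and Tarbp2 (ENSMUSG00000023051, chr15:102518192-102523676, plus strand). The other members are Dgcr8 (ENSMUSG00000022718, chr16:18253948-18289246, minus strand), Xpo5 (ENSMUSG00000067150, chr17:46202782-46243598, plus strand), Dicer1 (ENSMUSG00000041415, chr12:104687742-104751952, minus strand) and Prkra (ENSMUSG00000002731, chr2:76629898-76648015, minus strand). Over the 20 libraries Pearson's r of log2 CPM was 0.716 to 0.864 among the 3 neighbours on chromosome 4, and for Ago2 it was 0.903 with Ago3, 0.564 with Ago4 and 0.461 with Ago1. As shA4 is directed at CAG repeats, the transcripts of the members were searched for runs of CAG. Drosha and Dicer1 hold up to 3 in a row, Prkra 1 and the other 7 members 2, where 14.9% of protein-coding genes hold at least 3 and 0.954% at least 6.

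Among the members themselves, levels over the 20 libraries went together in part. Of 45 pairs 24 had a positive Pearson's r of log2 CPM, with a median of 0.0386. The highest was that of Dicer1 with Ago3, 0.913, and the lowest that of Drosha with Dicer1, −0.513, and these libraries share their groups and ages, so that r describes the set and carries no test. Among all tested genes, those most like Ago2 were Cep290 (r = 0.957), Aak1 (0.949) and Ttc39b (0.946). Those most like Dicer1 were Dop1a (0.982), Herc1 (0.975) and Mycbp2 (0.975). For Drosha, which varied least, the closest were Aldh18a1 (0.806), Elmo1 (0.756) and Slc12a8 (0.748).

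These data have limits for the question. The counts measure messenger RNA of the machinery and no protein, mature miRNA or shRNA, and bulk tissue mixes cells with and without the vector. No group received a vector without an shRNA, no SCA7 group went untreated, and no late WT group received a vector. With 3 to 5 mice per group small differences can be missed, and a p above the limit does not show that levels were equal. Nothing in the labels pairs mice between groups. Levels relative to all reads do not show the amount per cell.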

How the data were processed

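The deposited table holds counts of reads per gene from 20 mouse cerebella, 1 per library. Per the deposited methods, the authors made the counts with bcl2fastq 2.20.0.422, cutadapt 1.10, Bowtie2 2.2.8 (ribosomal reads), STAR 2.5.3a on mm10 and HTSeq 0.6.1p1, whose strand setting is not stated. Depth was 31465586 to 54570503 counts. Genes were annotated with GENCODE M21, which held 55141 of the 55401 genes. Tests used edgeR 4.0.16 (R 4.3.3) on protein-coding genes past filterByExpr (minimum count 10, total 15), with TMM scaling, quasi-likelihood fits and Benjamini-Hochberg adjustment, and a call is an adjusted p under 0.05. The 6 early libraries were fitted together, the 14 late ones together, and all 20 for 25w against 9w and the interaction. Exact two-sided permutation tests used log2(CPM + 0.1). Alternatives were DESeq2 1.42.0, limma-voom (limma 3.58.1), other scalings, filters and gene sets, thinned counts, a replicate block, and leaving out libraries. Of each pathway list (GW182 and RISC partners, loading chaperones, decay, Microprocessor and export cofactors, tailing and turnover, double-stranded RNA, piRNA, miRNA hosts), the genes named by rule are the one with the highest mean CPM per kilobase and, in each comparison, up to 3 genes past both an adjusted p of 0.05 and 1.3-fold with the smallest adjusted p. Other called genes of these lists were named after their values were seen. Marker genes named are the most abundant or called ones of their list. Also named are all 10 members, Atxn7, and the 3 genes with the highest r for Ago2, Dicer1 and Drosha. Marker lists cover PCs, granule cells, interneurons, Bergmann glia, oligodendrocytes, microglia, ependyma, choroid plexus, blood, forebrain and brainstem. Members and lists were chosen with earlier results of these data known. Some results of single list genes are withheld and not reported here.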

Additional observations from a re-analysis of the deposited data

Results flagged for a closer look

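Among 69 groups of 4 or 5 libraries examined, 5 had 1 library far from the others of its group, measured as its gap to the nearest library over the range of the group, where chance gives about 1 in 20 groups. Ago1 was at 127 CPM in AAV-shSCR-treated SCA7 replicate 3, below the nearest of the other 4 at 135 CPM. Ago2 was at 176 CPM in AAV-shA4-treated SCA7 replicate 3, above the nearest at 164.005 CPM. The summed granule cell markers were at 3839 CPM in untreated WT replicate 1 at 25w, below the nearest at 4365 CPM, and at 3651 CPM in AAV-shA4-treated SCA7 replicate 1, below the nearest at 3997 CPM. These are the libraries that stood apart on the second principal component. The summed microglia markers were at 214 CPM in AAV-shA4-treated SCA7 replicate 2, above the nearest at 178 CPM.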

How the results depend on the processing

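The direction and the call of the members were recomputed under each alternative, changing 1 choice at a time. Of 540 values under alternatives with every library or without both libraries that stood apart, 526 kept direction and side of the limit, 1 lost its call, 2 gained one and 11 changed sign. Of 680 values without 1 library in turn, 642 kept both, 11 lost a call, 1 gained one and 26 changed sign. Values that changed sign were at most 0.0051 in size in the first set and 0.060 in the second. The cause was not tested for any of these. The genes of the pathway lists were not refitted.

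Calls of members among the 10 fell to 0 with the 1.3-fold limit in AAV-shSCR-treated SCA7 against WT mice (2 without it), AAV-shA4-treated SCA7 against WT mice (1) and 25w against 9w (4), since each change was smaller than that. Without 1 library in turn the number called ran from 1 to 2, from 0 to 1 and from 3 to 4 in these comparisons, and stayed 0 in the other 2. With upper-quartile scaling or DESeq2 it was 3 in AAV-shSCR-treated mice, with Xpo5 added.

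Dgcr8 in the early comparison was at 0.00049 with RLE scaling and 0.00040 with DESeq2. In AAV-shA4-treated SCA7 against WT mice it was at 0.0051 with upper-quartile scaling, 0.0013 with limma-voom, 0.0018 with the replicate block and 0.0040 with thinned counts. Prkra in AAV-shSCR-treated SCA7 against WT mice was at −0.0020 without a filter, −5.1e-05 with DESeq2, −5.9e-05 with limma-voom and −0.0026 with all genes of the table. Xpo5 between the ages was at 0.0022 without both libraries that stood apart, an alternative chosen after seeing the data.

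Without 1 library in turn, changes of sign came in these ranges. In the early comparison they were −0.063 to 0.0076 for Ago4, −0.024 to 0.025 for Xpo5, −0.032 to 0.054 for Ago3, −0.030 to 0.071 for Dicer1 and −0.067 to 0.060 for Dgcr8. In AAV-shSCR-treated SCA7 against WT mice they were −0.033 to 0.013 for Ago3, −0.019 to 0.0014 for Drosha and −0.027 to 0.038 for Prkra. In AAV-shA4-treated SCA7 against WT mice Dgcr8 ran from −0.039 to 0.039, and between the ages Xpo5 ran from −0.020 to 0.0029 and Prkra from −0.067 to 0.033.

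Replicate numbers were tried as a block, though nothing in the labels pairs mice. With the block Ago1 was at 0.14 (adjusted p = 0.0132 in edgeR) and Ago2 at −0.11 (adjusted p = 0.0385) in AAV-shSCR-treated SCA7 against WT mice, and Ago2 at −0.12 (adjusted p = 0.0266) with AAV-shA4. Early Tarbp2 was at −0.31 (adjusted p = 0.131 in edgeR, against 0.111 to 0.349 over the alternatives). Between the ages Ago2 was at 0.32 (adjusted p = 0.000199), Ago3 at 0.27 (0.00325), Dicer1 at 0.25 (0.00106) and Dgcr8 at 0.17 (0.0831), so 3 of 10 were called.

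Among all genes the early count of 10 became 130 with DESeq2, 75 with the block, 45 when all 20 libraries were fitted, 37 without a filter, 27 with robust fits and 21 with all genes of the table. Between AAV-shA4 and AAV-shSCR the count of 0 became 23 with DESeq2 and 3 without both libraries that stood apart. With other scalings the medians of all genes lay between 0.00088 and 0.012. Tarbp2 and Ago4 had the fewest reads of the members, down to 655 and 693 in 1 library, so that counting noise weighs more on them than on the others.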
